A study of Mus musculus with 10 samples.

Results

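The genes described here are receptors that guide macrophages and monocytes along gradients of chemokines and other chemoattractants: Ccr1, Ccr2, Cx3cr1, Cxcr4, Cmklr1, Fpr1 and Fpr2. They were taken as a list of 7 names. Each was read by the probe set that carried its symbol alone and had the highest mean over the arrays. Of the 7 genes, 5 had such a probe set, among 19938 genes in all. No probe set was named for Fpr1 or Fpr2, and both are not analysed here.

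The samples were 10 Affymetrix arrays of total RNA from immortalized mouse macrophages. The groups were a TLR9KO line given β-1,3 glucan beads (2 arrays), wild-type B6 cells given the same beads (3 arrays), the TLR9KO line left unstimulated (2 arrays) and wild-type cells left unstimulated (3 arrays). The label TLR9KO stands for a knockout of Toll-like receptor 9, an endosomal sensor of DNA, and the beads present the fungal sugar that the lectin Dectin-1 binds. Beads were given at 20 per cell for 4 h. All groups were immortalized cells. The sources used here do not give how the cells were immortalized, how many clones or animals each line came from, or the age of the donors, so genotype and line cannot be told apart. Whether the arrays of a group stand for separate cultures is not in the labels, and the p-values then measure only the spread between these arrays.

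Tlr9, the targeted gene, was not lower in the line labelled TLR9KO. Its log2 signal (probe set 10588479) was 7.35 and 7.31 in that line with beads, against 7.03, 7.21 and 7.44 in wild-type cells with beads, and 7.44 and 7.62 without beads, against 7.32, 6.91 and 7.25 in unstimulated wild-type cells. The difference was 0.37 ± 0.15 without beads and 0.10 ± 0.15 with beads, and neither passed. Where the probe set lies relative to the deletion is not known here, so this signal does not check the labels. TLR9KO therefore stands below for the arrays that carry that label, and each direction between the lines rests on the labels.

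These receptors are G protein-coupled. Ligand binding releases Gi-type G proteins, which set off phosphoinositide 3-kinase and Rac signalling and turn the cell towards the source, while receptor kinases, arrestins and RGS proteins end the signal. On monocytes, Ccr2 is known for the exit from bone marrow and Cx3cr1 for patrolling cells and tissue macrophages, microglia among them. Cxcr4 holds leukocytes in the marrow, Ccr1 answers inflammatory CC chemokines, and Cmklr1 answers chemerin.

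Values are log2 signals, made by the authors with RMA. Signals were not compared between probe sets. Whether a gene lay low was instead judged by the 25th percentile of all probe sets of the same array, since the table used holds no detection calls. The median of the arrays ran from 5.75 to 6.10. Wild-type bead array 3 stood apart, with the highest median (6.10), the smallest SD over genes (1.75, against 1.86 to 2.00 on the other arrays) and the lowest mean correlation with its group mates (0.973). Main values that it moves are also given without it. Of 12 macrophage markers, 11 lay above the median on every array (all but Aif1, an actin-binding protein of macrophages), while none of 10 neutrophil, 8 T and NK lymphocyte or 4 B lymphocyte markers did. Of 3 monocyte markers, 2 lay above the median on every array. Among 7 dendritic cell markers Zbtb46 did, and among 7 fibroblast and stromal markers the collagens Col1a1, Col1a2 and Col3a1 did.

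As reported here, none of the 5 receptors passed the test in any comparison. The test was limma over all genes, with Benjamini-Hochberg adjusted p under 0.05. Cx3cr1 came nearest, with a higher level in both TLR9KO groups than in the matching wild-type groups, by 0.55 ± 0.18 without beads and 0.61 ± 0.18 with beads (log2 difference ± SE). For the other 4, all differences between the lines and with beads lay between -0.13 and 0.16. Of all genes, 8.25% passed between the unstimulated lines, 7.22% between the lines with beads, and 0% in either bead response or in the difference between the bead responses.

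**Figure D1:**
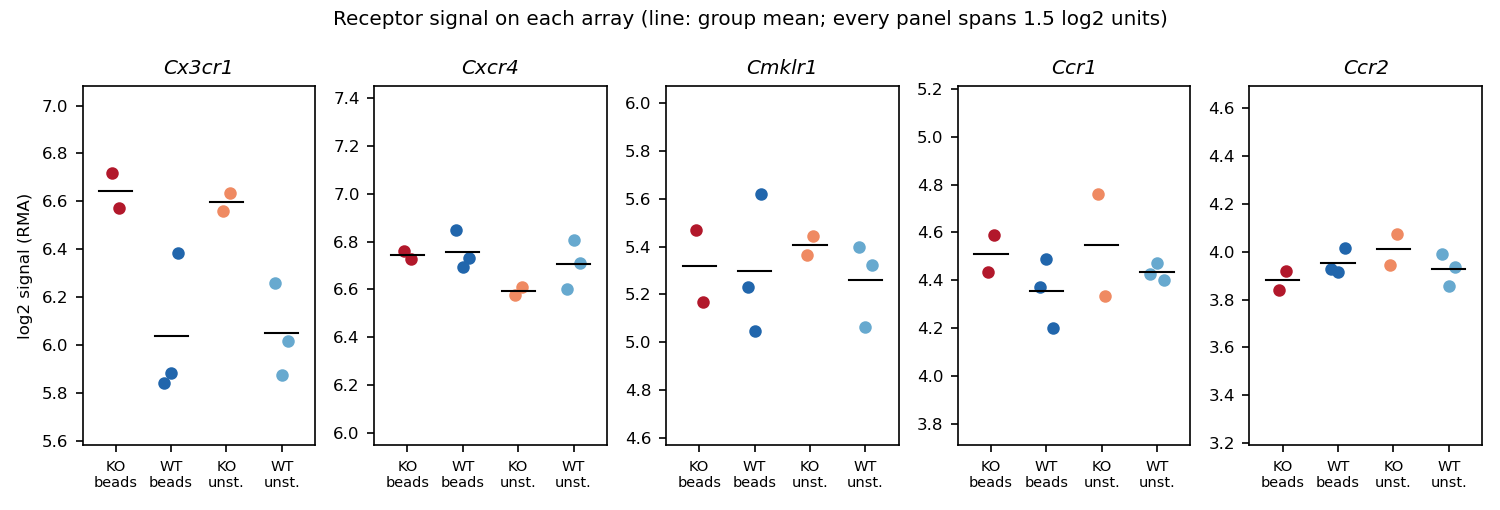
Log2 signal of the 5 receptors on each of the 10 arrays, with 1 point per array and a line at the group mean. KO is the TLR9KO line, WT wild type and unst. unstimulated. The 4 TLR9KO arrays of Cx3cr1 lie above the 6 wild-type arrays, while the lines overlap for Cmklr1, Ccr1 and Ccr2 and, in part, for Cxcr4.

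Cx3cr1, the receptor of the membrane-bound chemokine fractalkine (Cx3cl1), was read by probe set 10597743. It measured 6.72 and 6.57 on the log2 scale in TLR9KO cells with beads, against 5.84, 5.88 and 6.39 in wild-type cells with beads. Without beads it was 6.56 and 6.63 in TLR9KO cells, against 6.26, 5.87 and 6.02 in wild-type cells. All 4 TLR9KO arrays thus lay above all 6 wild-type arrays. The highest wild-type value was that of wild-type bead array 3, the array that stood apart.

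The order of the group means was TLR9KO with beads (6.64 ± 0.10, SD, n = 2), TLR9KO unstimulated (6.60 ± 0.053, n = 2), wild type unstimulated (6.05 ± 0.20, n = 3) and wild type with beads (6.04 ± 0.30, n = 3). The 2 TLR9KO groups overlapped, as did the 2 wild-type groups, so the 1 step in this order was that between the lines. Arrays that did not overlap and were higher in TLR9KO cells were common: 17.7% of all genes did so without beads, 11.3% with beads and 8.46% in both.

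Between the unstimulated lines the difference of Cx3cr1 was 0.55 ± 0.18 on the log2 scale, or 1.46-fold (95% confidence interval 1.11 to 1.92), with a limma adjusted p of 0.107. With beads it was 0.61 ± 0.18, or 1.52-fold (1.16 to 2.00), with a limma adjusted p of 0.0791. The unadjusted p was 0.0121 and 0.00685, and 17.9% and 16.1% of all genes had an unadjusted p under 0.05 in these comparisons. Neither difference passed after adjustment. The 2 comparisons share no arrays, but they share the fit and its estimate of the spread.

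Without wild-type bead array 3 the difference passed in both comparisons, at 0.55 (adjusted p = 0.00578) without beads and 0.78 (adjusted p = 0.00124) with beads, all limma fits. It also passed in both after centring on the array median (0.50 and 0.59), after quantile normalisation (0.53 and 0.59), with array weights (0.54 and 0.76) and with a covariate for the signal range of the arrays (0.46 and 0.59), the last chosen after the data were seen. A fit of the compared groups alone passed without beads (adjusted p = 0.0179) and not with beads (adjusted p = 0.290). The Cx3cr1 difference thus passed under 6 of 20 alternatives without beads and 5 of 20 with beads. Most of these settings also called more genes in general, against 1645 and 1439 as reported. The counts were 3668 and 4171 without wild-type bead array 3, 4451 and 6083 with array weights, and 4297 and 4238 with the covariate. They were 2483 and 2263 after quantile normalisation, and 756 and 704 after centring on the median. Over all alternatives the adjusted p ran from 0.00129 to 0.459 without beads and from 1.69e-04 to 0.436 with beads, and the sign was positive throughout.

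**Figure D2:**
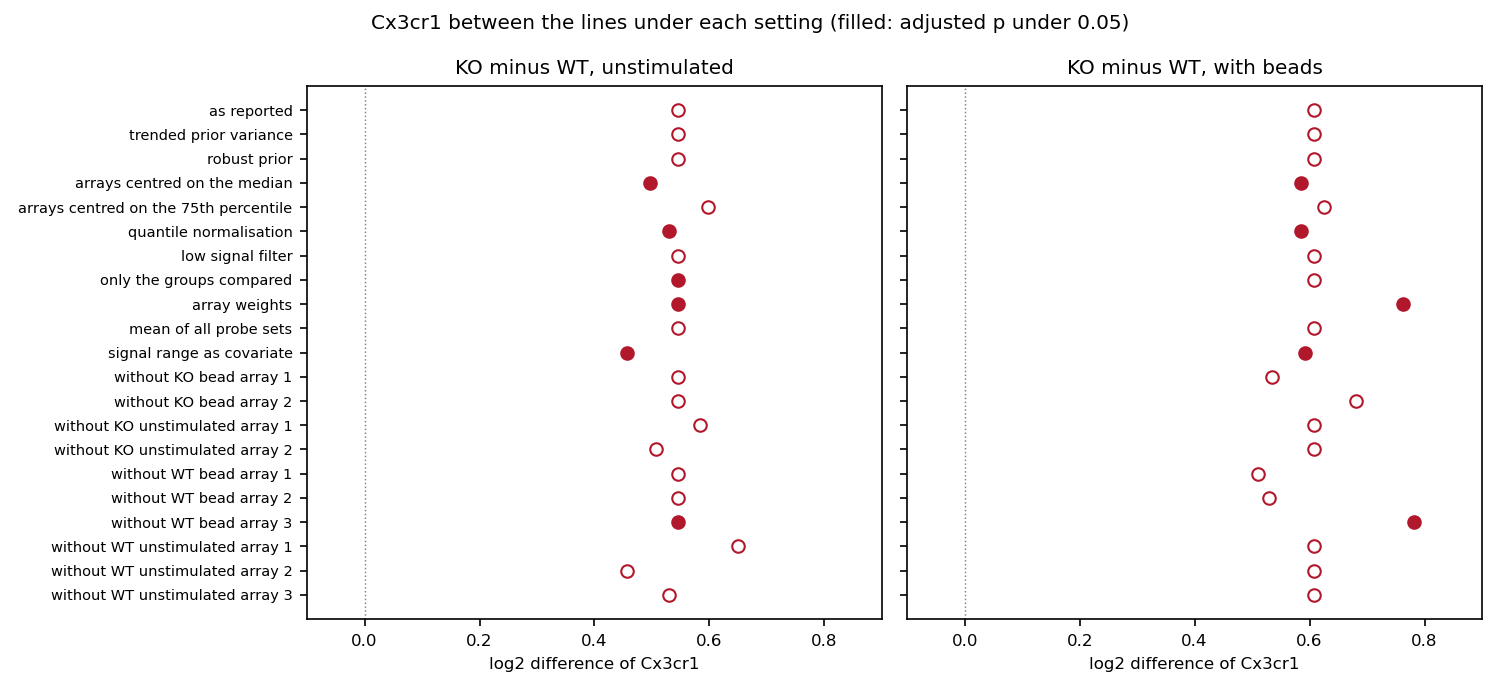
Log2 difference of Cx3cr1 between the TLR9KO line (KO) and wild type (WT), unstimulated on the left and with beads on the right, as reported and under each of 20 alternatives. Filled points have an adjusted p under 0.05, and all points lie to the right of 0, from 0.46 to 0.65 without beads and from 0.51 to 0.78 with beads.

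Less the median of its array, Cx3cr1 stood at 0.75 and 0.73 in TLR9KO cells with beads, against 0.064, 0.12 and 0.28 in wild-type cells with beads. Without beads it stood at 0.69 and 0.68 in TLR9KO cells, against 0.33, 0.12 and 0.12 in wild-type cells. On this scale the lowest TLR9KO array was still above the highest wild-type array.

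No bead response of Cx3cr1 was seen in either line. The difference with beads was 0.048 ± 0.19 in TLR9KO cells (95% interval -0.39 to 0.48) and -0.014 ± 0.16 in wild-type cells (-0.37 to 0.34), and the responses differed by 0.062 ± 0.25 (-0.50 to 0.62), or by 0.24 without wild-type bead array 3. These intervals leave room for changes of up to 1.40-fold in TLR9KO cells. Without wild-type bead array 3 the wild-type value was -0.19 (adjusted p = 0.507), and with array weights it was -0.17 and passed (adjusted p = 0.0262, limma). The array weights had not converged, and 9174 of 19938 genes passed with them in this comparison.

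Promoter sequence is shown for Cx3cr1, the receptor that differed most between the lines, and for Ccr1, a receptor whose signal lay near the bottom of the arrays. Each run gives the 250 bases before the start of the gene in RefSeq (GRCm38.p6), 5′ to 3′ on the gene's strand. Cx3cr1 is at chr9:120068297-120068546 (minus strand) and Ccr1 at chr9:123968693-123968942 (minus strand). Capitals mark matches to 3 short motifs searched on both strands: GAGGAA, the core bound by the macrophage factor PU.1; the core of the interferon-stimulated response element, read as GAAA and GAAA with any 2 bases between; and a core of NF-kappaB sites, read as GGGA and CC with any 4 bases between.
Cx3cr1: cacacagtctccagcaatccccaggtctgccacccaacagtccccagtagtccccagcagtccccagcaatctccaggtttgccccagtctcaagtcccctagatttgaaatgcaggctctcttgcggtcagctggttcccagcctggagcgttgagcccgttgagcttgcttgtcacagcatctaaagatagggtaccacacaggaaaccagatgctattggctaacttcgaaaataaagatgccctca
Ccr1: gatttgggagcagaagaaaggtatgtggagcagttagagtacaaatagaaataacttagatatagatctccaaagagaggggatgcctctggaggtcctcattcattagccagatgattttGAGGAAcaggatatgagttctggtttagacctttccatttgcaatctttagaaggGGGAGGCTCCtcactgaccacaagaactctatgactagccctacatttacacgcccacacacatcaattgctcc
The Cx3cr1 window held none of the motifs. The Ccr1 window held 1 GAGGAA and 1 NF-kappaB core match, which did not overlap. Of the other promoters, that of Cmklr1 held 1 GAGGAA match, and those of Ccr2 and Cxcr4 held none. Of 32851 promoter windows of this length, 23.3% held GAGGAA, 2.98% the interferon response core and 17.6% the NF-kappaB core.

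Cxcr4, the receptor of Cxcl12, was read by probe set 10357472 and varied less than Cx3cr1, the other receptor above the array medians. It had 6.76 and 6.73 in TLR9KO cells with beads, against 6.85, 6.69 and 6.73 in wild-type cells with beads. Without beads it had 6.58 and 6.61 in TLR9KO cells, against 6.60, 6.80 and 6.71 in wild-type cells. The 2 TLR9KO bead arrays both lay above the 2 unstimulated TLR9KO arrays, while wild type overlapped with itself and with TLR9KO in each condition.

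The bead difference of Cxcr4 was 0.15 ± 0.11 in TLR9KO cells (95% interval -0.085 to 0.39) and 0.052 ± 0.086 in wild-type cells (-0.14 to 0.25). Its group means ran in the order wild type with beads (6.76 ± 0.081, n = 3), TLR9KO with beads (6.74 ± 0.022, n = 2), wild type unstimulated (6.71 ± 0.10, n = 3) and TLR9KO unstimulated (6.59 ± 0.024, n = 2; all SD). Neighbours in this order overlapped. Between the lines the difference was -0.11 ± 0.096 without beads and -0.013 ± 0.096 with beads (-0.027 without wild-type bead array 3), and the responses differed by 0.099 ± 0.14. All adjusted p-values were 0.784 or above in limma. Over the 10 arrays Cxcr4 spanned 0.27 log2 units, and 12.3% of all genes spanned less.

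Cmklr1, the receptor of the adipokine chemerin, was read by probe set 10532711 and lay between percentiles 36.0 and 40.5 of the arrays. It had 5.47 and 5.17 in TLR9KO cells with beads, against 5.23, 5.05 and 5.62 in wild-type cells with beads. Without beads it had 5.37 and 5.45 in TLR9KO cells, against 5.40, 5.06 and 5.32 in wild-type cells. The groups overlapped in every comparison. The highest value was again on wild-type bead array 3.

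The means of Cmklr1 were 5.41 ± 0.057 in unstimulated TLR9KO cells, 5.32 ± 0.21 in TLR9KO cells with beads, 5.30 ± 0.29 in wild-type cells with beads and 5.26 ± 0.18 in unstimulated wild-type cells (SD). No 2 neighbours in this order differed beyond their spread. The lines differed by 0.14 ± 0.18 without beads (95% interval -0.25 to 0.54) and by 0.018 ± 0.18 with beads (-0.38 to 0.42). The bead differences were -0.088 ± 0.19 in TLR9KO cells and 0.038 ± 0.16 in wild-type cells. Without wild-type bead array 3 the wild-type bead difference was -0.12, the line difference with beads 0.18 and the difference between the responses 0.033, against -0.13 with it, and none passed. The wild-type bead difference was -0.26 and passed with array weights (adjusted p = 0.00531, limma), a fit in which the weights had not converged. In that fit 9174 of 19938 genes passed in this comparison. The difference passed under none of the other alternatives.

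Ccr1, a receptor of Ccl3, Ccl5, Ccl7 and Ccl9, was read by probe set 10598004 and lay under the 25th percentile on 9 of 10 arrays. The exception was unstimulated TLR9KO array 1. Its signal was 4.44 and 4.59 in TLR9KO cells with beads, against 4.37, 4.49 and 4.20 in wild-type cells with beads. Without beads it was 4.76 and 4.33 in TLR9KO cells, against 4.43, 4.47 and 4.40 in wild-type cells. The 2 unstimulated TLR9KO arrays lay on either side of all 3 wild-type ones.

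The group means of Ccr1 ran from 4.55 ± 0.30 in unstimulated TLR9KO cells and 4.51 ± 0.11 in TLR9KO cells with beads to 4.43 ± 0.034 in unstimulated wild-type cells and 4.35 ± 0.15 in wild-type cells with beads (SD), and neighbours overlapped. The lines differed by 0.11 ± 0.14 without beads (95% interval -0.20 to 0.43) and by 0.16 ± 0.14 with beads (-0.16 to 0.47). The bead differences were -0.037 ± 0.15 in TLR9KO cells and -0.079 ± 0.12 in wild-type cells. Without unstimulated TLR9KO array 1 the unstimulated line difference was -0.099, so its sign rested on that array. Without wild-type bead array 3 the line difference with beads was 0.080, the wild-type bead difference -0.0019 and the difference between the responses -0.035, against 0.042 with it, and none passed.

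Ccr2, the receptor of Ccl2, Ccl7 and Ccl12, was read by probe set 10590631 and lay between percentiles 5.33 and 9.81 on all 10 arrays. Its signal was 3.84 and 3.92 in TLR9KO cells with beads, against 3.93, 3.91 and 4.01 in wild-type cells with beads. Without beads it was 3.94 and 4.08 in TLR9KO cells, against 3.99, 3.86 and 3.93 in wild-type cells. The TLR9KO bead arrays lay just below the unstimulated TLR9KO arrays, by -0.13 ± 0.10 (95% interval -0.36 to 0.096).

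In wild-type cells the bead difference of Ccr2 was 0.026 ± 0.082 (-0.0048 without wild-type bead array 3), and the responses differed by -0.16 ± 0.13. Between the lines Ccr2 differed by 0.084 ± 0.092 without beads and by -0.072 ± 0.092 with beads (-0.041 without that array). The means were 4.01 ± 0.092 in unstimulated TLR9KO cells, 3.95 ± 0.054 in wild-type cells with beads, 3.93 ± 0.067 in unstimulated wild-type cells and 3.88 ± 0.055 in TLR9KO cells with beads (SD), with each neighbouring pair overlapping. Ccr2 spanned 0.23 log2 units over all arrays, less than all but 8.04% of genes. 

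**Figure D3:**
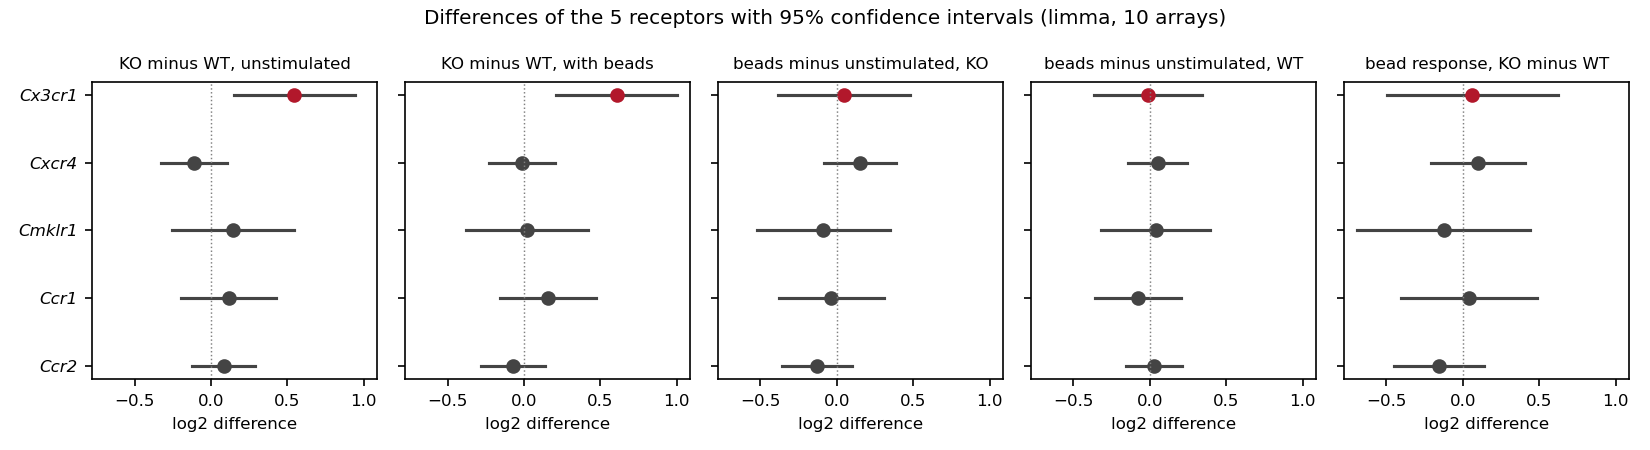
Log2 differences of the 5 receptors (points) with 95% confidence intervals (lines) in the 5 comparisons, KO being the TLR9KO line and WT wild type. The intervals of Cx3cr1 lie above 0 in both comparisons of the lines, before adjustment over all genes, and all other intervals include 0.

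Across the 5 receptors, 0 passed between the unstimulated lines and 0 between the lines with beads, with medians of 0.11 and 0.018 log2 units, against 0.017 and -0.011 over all genes. In the bead responses 0 passed in TLR9KO cells and 0 in wild-type cells, with medians of -0.037 and 0.026, against 0.0039 and 0.014 over all genes. At an unadjusted p under 0.05 the limma counts of receptors were 1, 1, 0 and 0. Of all genes, 359 (1.8%) reached it in the TLR9KO bead response, 167 (0.838%) in the wild-type one and 172 (0.863%) in the difference between them. Arrays of the compared groups did not overlap for 1 receptor between the unstimulated lines (38.8% of all genes), 1 between the lines with beads (23.6%), 2 in the TLR9KO bead response (24.4%) and 0 in the wild-type bead response (3.53%). Of the 2, Cxcr4 was higher with beads, as were 13.2% of all genes without overlap in TLR9KO cells, against 2.29% in wild-type cells. All of these were comparisons of bulk RNA, in which fewer cells with a receptor and less RNA per cell cannot be told apart.

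The genes most like each receptor were found by the root-mean-square (RMS) difference of log2 signal over the 10 arrays, each gene centred on its own mean, among 18275 named genes. For Cx3cr1, whose own RMS deviation was 0.33, they were the kinesin heavy chain Kif5a (0.033), the microtubule protein Map6 (0.063) and Ssbp2 (0.078). Kif5a stood 0.37 and 0.33 above its mean in TLR9KO cells with and without beads, and at -0.24 and -0.23 in wild-type cells with and without beads. For Cmklr1 (own deviation 0.18) they were the homeobox genes Nkx1-2 (0.028) and Lbx1 (0.033) and the receptor Gpr31b (0.035).

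The nearest genes to Ccr1 (own deviation 0.14) were Serf1 (0.053), the respiratory chain gene Ndufa4 (0.068) and the ribosomal protein gene Rps10 (0.069). For Ccr2 (own deviation 0.067) they were the defensin Defb26 (0.030), St6galnac6 (0.031) and the odorant receptor Olfr148 (0.033). For Cxcr4 (own deviation 0.085) they were Efcab2 (0.045), Zscan25 (0.048) and Clhc1 (0.050). For all 3 of these receptors the distances were smaller than the receptor's own deviation. Relative to that deviation they were larger than the distances for Cx3cr1 and Cmklr1.

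Other receptors of the same kind were measured for 29 of 33 listed names. Between the unstimulated lines 5 were higher in TLR9KO cells and 0 lower, and between the lines with beads again 5 and 0 (5 and 1 without wild-type bead array 3). Of all genes, 3.79% were higher and 4.46% lower without beads, and 3.82% and 3.4% with beads. The 5 in each case were Ptafr, Gpr183, C5ar1, Cxcr3 and C3ar1. The median of all 29 measured was 0.073 without beads and 0.023 with beads, against 0.017 and -0.011 over all genes. Of the 29, 8 lay under the 25th percentile on every array of all groups.

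Ptafr, the receptor of platelet-activating factor, had 8.60 and 8.65 in unstimulated TLR9KO cells, against 6.74, 6.45 and 6.41 in unstimulated wild-type cells. With beads it had 8.09 and 8.32 in TLR9KO cells, against 6.67, 6.69 and 6.63 in wild-type cells. The lines stood well apart in both conditions. The difference was 2.09 ± 0.12 without beads (adjusted p = 8.90e-06) and 1.54 ± 0.12 with beads (adjusted p = 6.33e-05), both limma. Its bead difference was -0.42 ± 0.13 in TLR9KO cells and did not pass, and the responses of the lines differed by -0.55 ± 0.17, which did not pass either.

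Gpr183, an oxysterol receptor, was higher by 1.09 ± 0.11 without beads and 1.06 ± 0.11 with beads. C5ar1, the receptor of the complement fragment C5a, was higher by 0.98 ± 0.14 without beads, and Cxcr3, the receptor of the interferon-induced chemokine Cxcl10, by 0.91 ± 0.14. With beads Cxcr3 (0.71 ± 0.14) and the C3a receptor C3ar1 (0.71 ± 0.12) were higher. C5ar1 without beads lost its call after centring on the median (0.93, adjusted p = 0.0690). Cxcr3 with beads lost its call without TLR9KO bead array 1 (0.62) or 2 (0.81) or wild-type bead array 2 (0.63). Centring on the 75th percentile also cost Cxcr3 its call with beads (0.73, adjusted p = 0.0688 in limma). C3ar1 with beads lost its call without TLR9KO bead array 2 (0.66). The count of 5 with beads was 3 and 2 without TLR9KO bead array 1 or 2, 2 where just the compared groups were fitted, and 3 in each condition after centring on the median. In the compared groups alone Cxcr3 (adjusted p = 0.150), C3ar1 (0.0906) and C5ar1 (0.191) lost their calls with beads, and C3ar1 did so after centring on the median in both conditions (0.0800 without beads and 0.0988 with beads). C5ar1 with beads also lost its call after that centring (0.61) and without TLR9KO bead array 1 (0.75) or 2 (0.53).

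**Figure D4:**
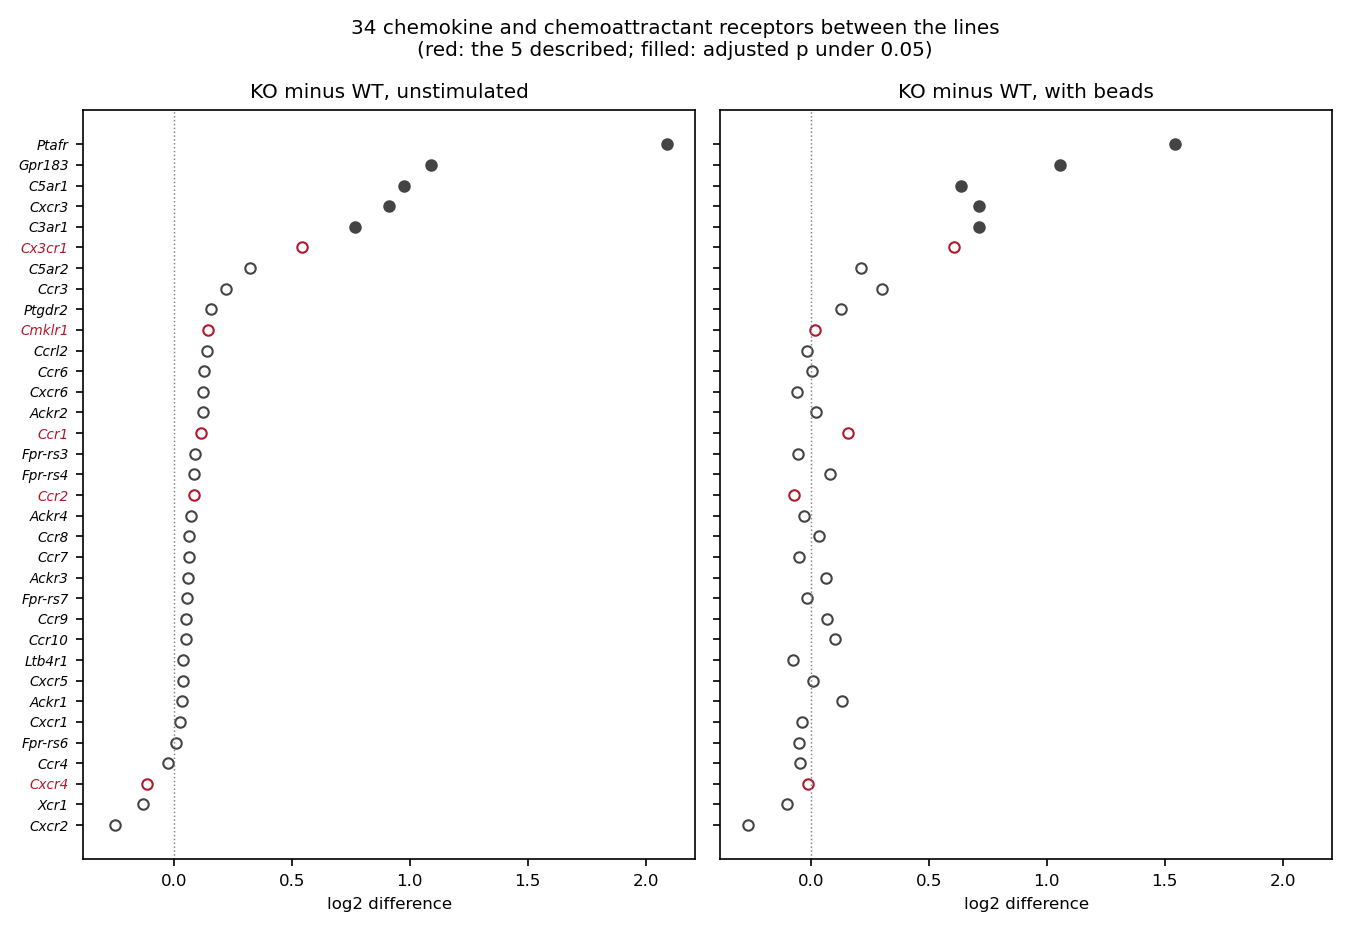
Log2 difference between the TLR9KO line (KO) and wild type (WT) for the 5 receptors described (red names) and 29 other chemokine and chemoattractant receptors, ordered by the unstimulated difference. Filled points passed at an adjusted p under 0.05, namely Ptafr, Gpr183, C5ar1, Cxcr3 and C3ar1 in both conditions. Cx3cr1 is the open red point that comes next, at 0.55 and 0.61.

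Ccr1 and Ccr2 sit among receptor genes that RefSeq (GRCm38.p6) lists on chromosome 9 in the order Ccr9, Cxcr6, Xcr1, Ccr1, Ccr1l1, Ccr3 and Ccr2. None of the 4 listed neighbours measured passed between the lines. Without beads they differed by 0.053 ± 0.12 (Ccr9), 0.13 ± 0.11 (Cxcr6), -0.13 ± 0.14 (Xcr1) and 0.22 ± 0.12 (Ccr3). Ccr9 and Cxcr6 lay under the 25th percentile on all 10 arrays, like Ccr2. Cx3cr1 lies elsewhere on the same chromosome, with Ccr8 as the next protein-coding gene on 1 side, which differed by 0.064 ± 0.092 without beads and was also under that percentile throughout.

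Ligands of the 7 receptors were measured for all 18 names. Without beads 4 were higher in TLR9KO cells and 3 lower, where 3.79% and 4.46% of all genes were. With beads 2 were higher and 4 lower, where 3.82% and 3.4% of all genes were. Their medians were 0.0061 and 0.0023, against 0.017 and -0.011 over all genes. The partners of Cx3cr1, Cxcr4 and Cmklr1 did not pass, with Cx3cl1 at 0.018 ± 0.27, Cxcl12 at 0.023 ± 0.12 and chemerin (Rarres2) at -0.0057 ± 0.11 without beads. The calls were of CC chemokines and of Anxa1, a ligand of Fpr2.

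Ccl7, which binds Ccr1 and Ccr2, had 6.28 and 6.29 in unstimulated TLR9KO cells, against 8.28, 8.66 and 8.16 in unstimulated wild-type cells. The difference was -2.08 ± 0.15 (adjusted p = 3.80e-05), and -1.89 ± 0.15 with beads (limma). Ccl2, the main ligand of Ccr2, was lower by -1.28 ± 0.17 without beads and -1.03 ± 0.17 with beads. Ccl5, which binds Ccr1, was higher, with 10.1 and 9.37 in unstimulated TLR9KO cells, against 6.75, 6.45 and 6.59 in unstimulated wild-type cells (3.16 ± 0.23), and by 2.93 ± 0.23 with beads.

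Anxa1 was higher by 1.47 ± 0.35 without beads and 1.45 ± 0.35 with beads (1.03 without wild-type bead array 3). Its calls were lost without any of the 5 unstimulated arrays (adjusted p = 0.0633 to 0.238) and, with beads, without any array but the wild-type bead arrays (adjusted p = 0.0550 to 0.266, limma). Ccl2 with beads lost its call without TLR9KO bead array 1 (-0.89, adjusted p = 0.0698). Without beads the ligand counts were 1 or 2 higher and 2 or 3 lower when any unstimulated array was left out. With beads they were 1 and 1 without TLR9KO bead array 1, 1 and 2 without array 2, 2 and 2 without wild-type bead array 1 or 2, and 3 and 5 without wild-type bead array 3. Leaving out array 1 or 3 of the unstimulated wild-type cells gave 1 and 2. After centring on the median they were 1 and 2 without beads and 1 and 1 with beads, and in the compared groups alone 1 and 1 with beads.

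Signalling and desensitisation genes below the receptors were measured for 31 of 33 names. Without beads 5 were higher in TLR9KO cells and 1 lower, where 3.79% and 4.46% of all genes were. With beads 6 were higher and 1 lower, where 3.82% and 3.4% of all genes were. The medians were 0.21 and 0.24, against 0.017 and -0.011 over all genes. Rgs2 and Rgs1, which speed the shut-off of G proteins, were higher by 1.52 ± 0.24 and 1.09 ± 0.22 without beads and by 1.75 ± 0.24 and 1.20 ± 0.22 with beads. Without wild-type bead array 3 their differences with beads were 1.48 and 0.96. The phospholipase Plcb2 was higher by 0.96 ± 0.16 without beads and 1.12 ± 0.16 with beads (0.97 without wild-type bead array 3). The G protein subunit Gng2 was higher by 0.75 ± 0.15 without beads and 0.64 ± 0.15 with beads. Its call with beads was lost at least after centring on the median, without either TLR9KO bead array and in the compared groups alone. Gna13 was higher by 0.69 ± 0.13 with beads (0.57 without wild-type bead array 3) and by 0.50 ± 0.13 without beads, which did not pass.

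Of the receptor kinases, Grk5 passed as lower without beads (-0.63 ± 0.16) and Grk3 with beads (-0.69 ± 0.14). Both were also lower in the other condition without passing, Grk5 by -0.43 ± 0.16 with beads and Grk3 by -0.49 ± 0.14 without beads. The call of Grk5 was lost under 10 of 20 alternatives (adjusted p up to 0.269), among them the trended prior, quantile normalisation, centring on the median and leaving out any TLR9KO array, array 2 (-0.53) or 3 (-0.62) of the unstimulated wild-type cells, or wild-type bead array 2 (-0.63). Grk3 lost its call under 5 of 20 (adjusted p up to 0.184), among them leaving out TLR9KO bead array 1 (-0.71) or 2 (-0.67) or wild-type bead array 2 (-0.63). Rgs2 had 8.98 and 8.84 in unstimulated TLR9KO cells, against 7.19, 7.59 and 7.39 in unstimulated wild-type cells.

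Single arrays decided several calls of the higher genes. Without unstimulated TLR9KO array 1, Rgs2 (1.45), Rgs1 (1.08) and Gng2 (0.72) lost theirs, and without array 2, Rgs1 (1.10), Plcb2 (0.81) and Gng2 (0.78). Rgs1 also lost its call without unstimulated wild-type array 1 (1.02) or 3 (1.05), and Gng2 without array 3 (0.71). With beads Rgs1 (1.30 and 1.10) and Gna13 (0.73 and 0.65) lost theirs without TLR9KO bead array 1 or 2. The list's counts without beads were 2 higher and 0 lower without unstimulated TLR9KO array 1, 1 and 0 without array 2, 2 and 0 without unstimulated wild-type array 3, and 9 and 2 without wild-type bead array 3. With beads they were 2 and 0 without either TLR9KO bead array and 8 and 5 without wild-type bead array 3. After centring on the median they were 0 and 0 without beads and 2 and 0 with beads, and in the compared groups alone 2 and 0 with beads. With the covariate for signal range they were 14 and 2 without beads and 14 and 4 with beads, and with array weights 12 and 2 and 13 and 6.

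Some macrophage markers differed between the lines too. Of 12, 5 were higher and 1 lower in unstimulated TLR9KO cells, and 4 higher and 1 lower with beads. Of all genes, 3.79% were higher and 4.46% lower without beads, and 3.82% and 3.4% with beads. The markers did not move together. Without beads the means in TLR9KO and wild-type cells were 10.4 and 7.98 for Cd14, 6.30 and 7.80 for Mertk, and 12.59 and 12.57 for Lyz2. The mean log2 level of the 12 markers ran from 10.1 to 10.3 in TLR9KO cells with beads, against 9.50 to 9.99 in wild-type cells with beads. Without beads it ran from 10.25 to 10.4 in TLR9KO cells, against 9.75 to 9.80 in wild-type cells. Of 3 monocyte markers 1 was lower in each comparison of the lines. None of the neutrophil, dendritic cell, lymphocyte or fibroblast markers passed. The part of these markers in the receptor and ligand differences was not tested.

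No gene of the receptor, ligand or signalling lists passed in the bead response of either line or in the difference between them. Largest in size in TLR9KO cells were Ccl2 (0.48 ± 0.18) and Ptafr. In wild-type cells they were C5ar1 (0.35 ± 0.13, or 0.48 without wild-type bead array 3) and Elmo1 (-0.26 ± 0.16, or -0.049 without that array). Array weights, which had not converged, changed this for the wild-type bead response. With them 3 other receptors were higher and 9 lower with beads, 9 ligands higher and 1 lower, and 8 signalling genes higher and 1 lower. Of all 19938 genes, 9174 passed in the same fit, so these counts are not particular to the lists.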

How the data were processed

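The authors deposited log2 signals per probe set, made with RMA per the submitters' processing notes; the sources used here do not give its version, the software or which arrays were normalised together. Of 28853 probe sets, 21789 carried 1 gene symbol, which was updated by Entrez ID for 21698 of them (RefSeq, GRCm38.p6). For each of 19938 genes the brightest such probe set on average was used. No gene was removed for low signal.

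Arrays were grouped by the labels and numbered within groups in accession order. Group means were fitted with limma 3.58.1 in R 4.3.3 (6 residual and 3.23 prior degrees of freedom), with 5 contrasts, two-sided tests and Benjamini-Hochberg adjustment over all genes. The fit was tested on simulated data. The number of arrays limits the precision. The receptors, the gene lists and the tests were chosen with earlier results of these data known. All receptors were named, and from each list up to 4 genes per comparison that passed, by size, or where none passed up to 2. Other genes were named beside that rule after their values were seen. These were C3ar1 without beads, C5ar1 with beads, Gng2 with beads, Gna13 without beads, Grk3, Grk5, the neighbouring genes, Cx3cl1, Cxcl12 and Rarres2. Among the macrophage markers they were Cd14, Mertk and Lyz2. Alternatives were other variance priors, scalings, filters, weights, probe sets and arrays left out.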

Additional observations from a re-analysis of the deposited data

How the results depend on the processing

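No paired analysis was possible because no replicate numbers shared by the groups stand in the labels. The 5 receptors gave 485 values under the alternatives, of which 13 passed and 35 had the other sign, all but 1 of these without passing. The one was Cmklr1 in the wild-type bead response (-0.26 with array weights). The unstimulated line difference of Cx3cr1 passed at 0.50 (median centring), 0.53 (quantile normalisation), 0.55 (compared groups alone), 0.54 (array weights) and 0.46 (covariate for the range of signals); without 1 array it ran from 0.46 to 0.65. With beads it passed at 0.59, 0.59, 0.76 and 0.59 under all of these but the compared groups alone; without 1 array it ran from 0.51 to 0.78. Its wild-type bead response was -0.17 with array weights. The count of genes between the unstimulated lines, 1645, was 756, 2483, 3262, 4451 and 4297 under those settings in turn, and ran from 681 to 3668 without 1 array. With beads the count, 1439, was 704, 2263, 480, 6083 and 4238 in the same order and ran from 597 to 4171. The bead responses, at 0 genes, had 16 with array weights and 110 with the covariate in TLR9KO cells (0 to 17 without 1 array), and 9174 and 2 in wild-type cells. The difference between the responses had 9 and 2 (0 to 1 without 1 array). The causes were not tested. The array weights had not converged when the fit stopped. The filter on low signal removed Ccr1 and Ccr2. Of 24 list values that passed and were named by size, 12 lost the call under at least 1 alternative. The passing values named beside that rule lost theirs too. These were C3ar1 (1 of 20 alternatives) and Grk5 (10 of 20) without beads, and C5ar1 (4 of 20) and Grk3 (5 of 20) with beads. Gng2 with beads lost its call at least after centring on the median, without either TLR9KO bead array and in the compared groups alone. Low signal limits what can be seen of Ccr1 and Ccr2.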
